A study of Mus musculus with 20 samples.

Results

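Signals of 10 genes of the neuronal cytoskeleton were followed on two-colour microarrays, which carry short DNA probes for the transcripts of the mouse: the neurofilament subunits Nefl, Nefm and Nefh, the related intermediate filament genes Prph and Ina, the microtubule-associated proteins Mapt, Map1b and Map2, the tubulin Tubb3 and the stathmin Stmn2. Every probe that the array's annotation assigns to them was taken. The 10 genes are among 30222 gene names on the array, and they have 17 of the 39429 probes that are not controls, 12 of them under the current symbols of 8 genes and 5 under Mtap1b and Mtap2, the older symbols of Map1b and Map2. The RNA came from cultured dorsal root ganglion (DRG) neurons of NIH Swiss mouse embryos of day 13.5, grown for weeks with nerve growth factor and with fluorodeoxyuridine against dividing cells, and moved to medium without the growth factor and sera the night before. There were 5 conditions of 4 samples each: neurons left unstimulated, which were otherwise handled alike, and neurons stimulated through 6 V pulses of 0.2 ms with 18 action potentials each min (18/1) or 90 each 5 min (90/5), for 2 hr or for 5 hr. Both stimulated patterns deliver the same number of action potentials, so that the comparisons ask whether their timing and the duration of stimulation matter for the transcripts. The methods describe 5 pooled cultures per condition, and the legends call the 4 samples of a condition biological replicates from replicate experiments. The p-values measure the spread between these samples. In RNA from whole cultures, fewer neurons and less RNA per neuron cannot be told apart.

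Neurofilaments are the intermediate filaments that fill large axons and set their calibre. They are built from the light (Nefl), medium (Nefm) and heavy (Nefh) subunits, with alpha-internexin (Ina) as a partner in the central nervous system and peripherin (Prph) as the partner typical of peripheral sensory neurons. Axonal microtubules are built from tubulins, among them the neuronal beta-tubulin Tubb3, and are bundled and stabilised by tau (Mapt) and Map1b in axons and by Map2 mainly in dendrites, while Stmn2 binds free tubulin and is used in growing and regenerating axons.

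A probe is 60 bases long and is named here by the position in the transcript at which it starts. The probes that the results turn on are shown 5′ to 3′ as the array's annotation gives them, 4 of them whole and 3 by their first 30 bases, because the 3 probes of Mapt did not read alike and the probes of the neurofilament genes reached the upper limit of the scanner. Capitals mark a TGA triplet. In the probe of Mapt at 1472 it lies at position 1475, and it is the first stop codon within the printed bases in the only frame in which the probe at 1406 holds no stop. No bases of the transcript between the ends of these probes were examined.
Nefm 2582: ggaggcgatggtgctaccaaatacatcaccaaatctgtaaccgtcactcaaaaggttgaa
Nefh 3295: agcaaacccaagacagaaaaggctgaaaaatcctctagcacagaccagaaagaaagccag
Prph 1497: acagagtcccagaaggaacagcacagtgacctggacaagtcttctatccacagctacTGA
Nefl 1844: gactttcaatgtgtgctatgaatttcctcc
Mapt 1406: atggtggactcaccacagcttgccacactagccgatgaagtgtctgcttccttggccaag
Mapt 1472: ttgTGAtcaggctcccagggcagtcaataa
Mapt 5217: atgatttctttggtgattttgagggtgggg

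In build mm9, the build of the array's annotation, the Mapt probes lie at chr11:104189430-104189489 (1406), chr11:104189496-104189555 (1472) and chr11:104193241-104193300 (5217) on the + strand, so that the starts of the first and the second are 66 bases apart. The neurofilament probes lie at chr14:68705638-68705698 on the + strand (Nefl), chr14:68738193-68738252 on the - strand (Nefm, printed as 10 spots), and chr11:4838758-4838817 (3933) and chr11:4839396-4839455 (3295) on the - strand (Nefh). Prph is read at chr15:98889042-98889101 on the + strand, and Ina at chr19:47098781-47098840 on the + strand by the probe at 2203. The described probe of Map1b (10705) lies at chr13:100192506-100192565 on the - strand, and on the + strand lie those of Map2 (5145) at chr1:66488783-66488842, of Tubb3 (1662) at chr8:125945850-125945909 and of Stmn2 (1844) at chr3:8561545-8561604. Exon and UTR borders were not analysed here.

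Each array carried 2 samples of the same condition, 1 in each of the colours Cy3 and Cy5, so that a condition rests on 2 arrays, which limits how precise a value can be. Slide 1 held the unstimulated and the 18/1 2 hr samples, slide 2 the 18/1 5 hr and the 90/5 2 hr samples, and slide 3 the 90/5 5 hr samples. Slide and condition therefore cannot be told apart in any comparison other than 18/1 2 hr against unstimulated and 90/5 2 hr against 18/1 5 hr. At 18/1 5 hr and 90/5 2 hr the labels do not tie the replicates to colours, so these samples are named by array and colour. Slide 2 stood apart from the others: 3 of its 4 arrays, arrays 5, 6 and 8, had 3138 to 14642 spots per sample marked as non-uniform, against 6 to 139 in all other samples. Signals are given either raw, as scanned, or as normalized log2 values, on which all differences were computed.

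Of the 17 probes, 12 passed the spot filter, which asks for a signal at least 2 times the background and no mark for non-uniformity in all 20 samples; 12137 probes of the array did. The 5 that did not are a probe of Ina (2772), a probe of Map1b (8802) and all 3 probes of Map2 (5145, 4905 and 5066).

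Most of these transcripts were among the brightest on the array, and their raw signals could not be read in full. On slides 1 and 2 no signal exceeded 65527, while slide 3 was scanned over a wider range that reached 506707. A signal within 3% of the highest of slide 1 or of slide 2 is called at the ceiling here, and a probe of several spots when at least 50% of its spots are. The probes of Nefl, Prph and Stmn2 and the Nefh probe at 3933 were at the ceiling in all 16 samples of slides 1 and 2, although the scanner software had marked them as saturated in 12, since it marked no Cy3 signal of these probes on slide 1. The Nefm probe was so in 14 of these samples, with 7 to 10 of its 10 spots, the Nefh probe at 3295 and Tubb3 in the 8 of slide 2, the Map1b probe at 10705 in 4, and the Mapt probes at 1472 and 5217 in 3 and 1. Of the probes that passed the filter, 2 were never at the ceiling, Mapt 1406 and Ina 2203. Where all samples of both groups were at the ceiling neither a fold nor a log2 difference is given for the probe. Where all samples of only the brighter group were at the ceiling, their raw signals are lower bounds. Differences are computed on normalized values, which need not keep such a bound, so that a log2 difference but no fold is given. Ranges and medians over the 12 probes include the probes at the ceiling.

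**Figure D1:**
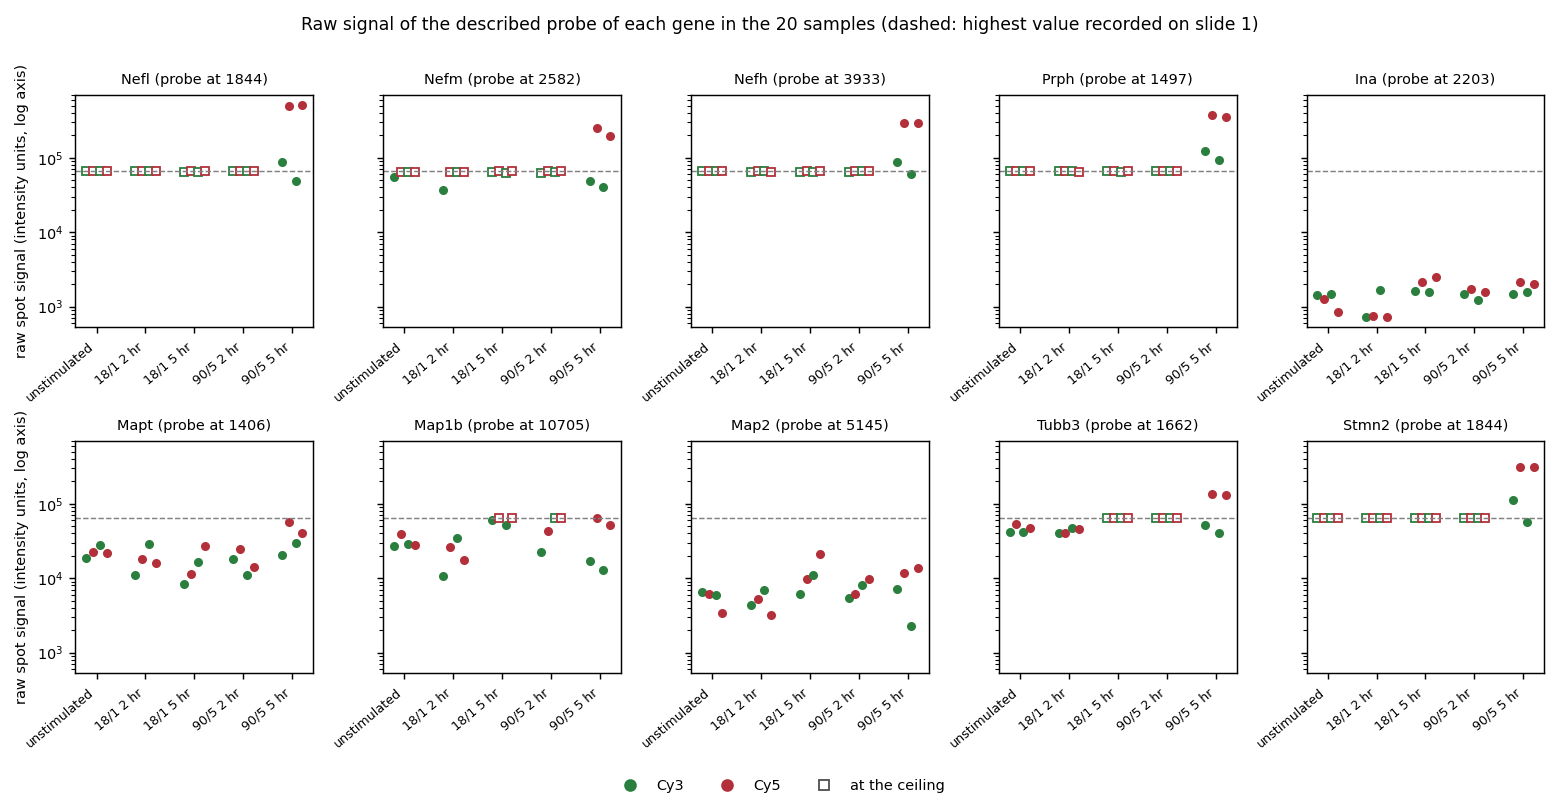
Raw signal, on a log axis, of the described probe of each of the 10 genes in the 20 samples, by condition, with Cy3 in green and Cy5 in red. Open squares are signals at the ceiling and the dashed line is the highest value of slide 1; Nefl, Prph and Stmn2 lie on it in all 16 samples of slides 1 and 2, and only samples of 90/5 5 hr rise above it.

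Against unstimulated neurons, 1 of the 12 tested probes was called, at an adjusted p under 0.05 in limma, in any of the 4 stimulated conditions: Mapt 1406 at 18/1 5 hr. After 2 hr of 18/1, which shares its slide with the unstimulated samples, limma called 0 of the 12, where it called 0.0165% of all probes, with 0 at an unadjusted p under 0.05 (0.84% of all probes). The methods' t-test called 0 of the 12 before adjustment, where it called 2.08% of all probes. With the replicate number as a block, which pairs these samples, 0 of the 12 were called and 7 of the 12137 probes (0.0577%) in place of 2. Differences on the log2 scale ran from -0.44 to 0.01 over the 12 probes, those at the ceiling included. The median was -0.14 for the 12 probes and 0.00 for all probes. The 7 probes that were below the ceiling in all samples of both conditions ran from -0.44 to -0.10.

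After 5 hr of 18/1, 1 of the 12 probes fell and 0 rose, where 30.6% of all probes were called lower and 14.4% higher (44.9% in either direction), and 3 had an unadjusted p under 0.05, as had 52.5% of all probes. The median difference was -0.51 over the 12 probes, those at the ceiling included, and -0.26 over all probes. When samples were centred on their medians alone, the median of all probes moved to -0.84 and 11 of the 12 were called, as were 53.4% of all probes, Tubb3 then with the opposite sign. The methods' t-test called 3 after adjustment (Mapt 1406, Mapt 1472 and Nefl), where it called 40.1% of all probes. In 6 of the 12 the 18/1 5 hr samples did not overlap the unstimulated ones (Nefl, Nefh 3933, Prph, Map1b, Mapt 1406 and Mapt 1472), which held for 54.3% of all probes. For Nefl, Nefh 3933 and Prph all 8 raw signals were at the ceiling, so that the order of their samples comes from the normalization and says nothing of their transcripts. For Map1b and Mapt 1472, 2 of the 18/1 5 hr samples were at the ceiling, so that their falls may be smaller than measured. These orders are of normalized values. Raw, the 18/1 5 hr signals of Map1b and Mapt 1472 lay above all unstimulated ones, and those of Mapt 1406 overlapped them.

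After 2 hr of 90/5, limma called 0 of the 12, where 3.07% of all probes were called higher and 2.92% lower (6% in either direction), with 1 (Mapt 1406) at an unadjusted p under 0.05 (22.3% of all probes) and 1 (Mapt 1406) by the methods' t-test before adjustment, where it called 20.1% of all probes. The median difference was -0.26 for the 12 and -0.09 for all probes. In 2 of the 12, Nefh 3933 and Mapt 1406, the samples did not overlap the unstimulated ones, which held for 25.6% of all probes. For Nefh 3933 all signals of both groups were at the ceiling, so that this order comes from the normalization and says nothing of its transcripts. After 5 hr of 90/5, limma called 0 of the 12, where 0.0577% of all probes were called, with 0 at an unadjusted p under 0.05 (3.32% of all probes) and 0 by the methods' t-test before adjustment (5.17% of all probes). The median was 0.01 for the 12 probes and 0.00 for all. These 4 comparisons share the unstimulated samples, so they are not independent of each other.

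**Figure D2:**
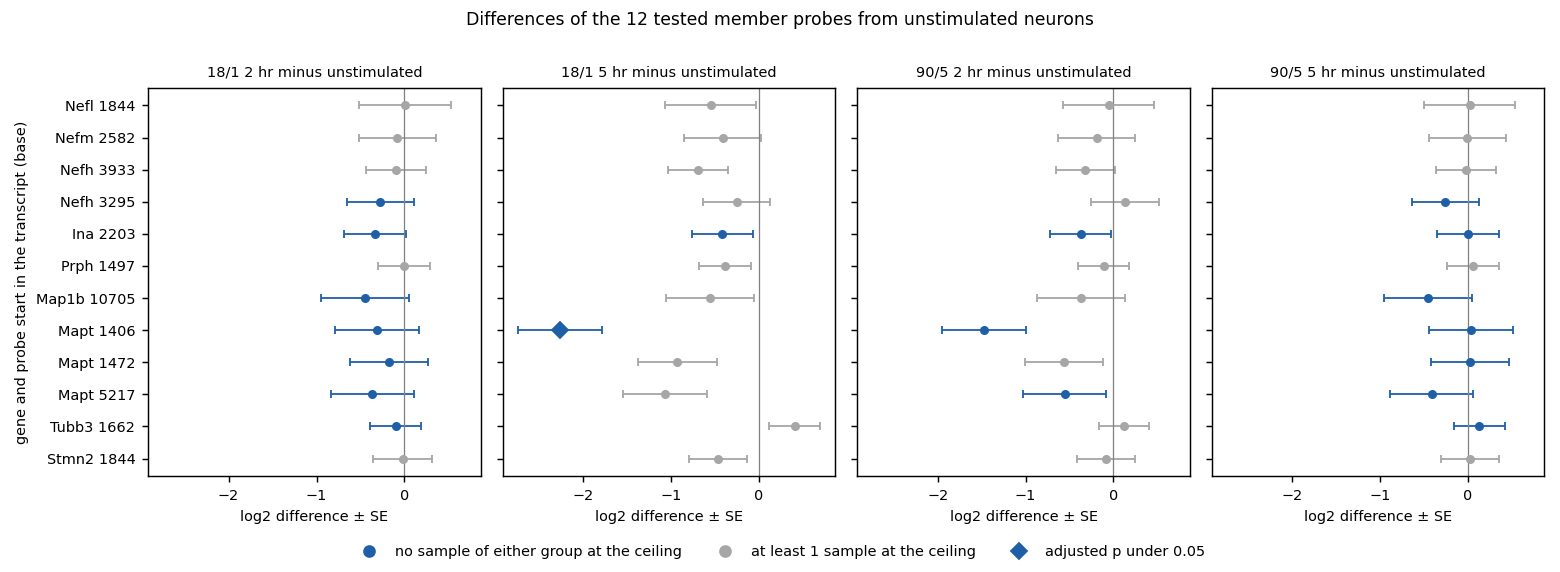
Log2 difference from unstimulated neurons, with its standard error, of the 12 tested probes in the 4 stimulated conditions, with 4 samples per condition. Blue marks probes with no sample of either group at the ceiling, grey those with at least 1, whose differences are not to be read as folds, and the diamond the only call, Mapt 1406 at 18/1 5 hr, at -2.27.

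The neurofilament light subunit Nefl could not be told apart between the conditions of slides 1 and 2, where its raw signals lay between 64979 and 65527. On slide 3 the 90/5 5 hr replicates read 87371, 495370, 49333 and 506707, so that the wider range was used and the Cy5 samples were several times the Cy3 samples. Normalized, the unstimulated samples read 16.31, 16.24, 16.23 and 16.33, those of 18/1 2 hr 16.11, 16.43, 16.34 and 16.24, those of 18/1 5 hr 15.80, 15.58, 16.10 and 15.42, those of 90/5 2 hr 16.23, 16.30, 16.34 and 16.005, and those of 90/5 5 hr 15.52, 17.07, 15.33 and 17.25. The 90/5 5 hr samples thus ran from 15.33 to 17.25. At the ceiling, the order of the other samples comes from the normalization, and no difference is given.

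The middle subunit Nefm was read by 10 spots per array, whose mean is its value. No spot was at the ceiling in 2 samples of slide 1, replicate 1 of unstimulated (54639) and replicate 1 of 18/1 2 hr (36731), and in the 90/5 5 hr samples (48768, 248776, 40700 and 195489). Normalized values were 15.96 to 16.20 in unstimulated neurons, 15.27 to 16.41 at 18/1 2 hr, 15.18 to 15.99 at 18/1 5 hr, 15.73 to 16.06 at 90/5 2 hr and 15.36 to 16.78 at 90/5 5 hr. All conditions overlapped the unstimulated samples. In all 4 samples of 18/1 5 hr, and in 3 of the 4 unstimulated ones, 7 to 10 of the 10 spots were at the ceiling, and no difference is given.

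The heavy subunit Nefh, whose long tail carries many phosphorylation sites, was read by 2 probes. The probe at 3933 was at the ceiling throughout slides 1 and 2 and read 87109, 293977, 61064 and 289557 raw at 90/5 5 hr. The probe at 3295 was below the ceiling on slides 1 and 3, with raw signals of 34461 to 56993 in unstimulated neurons, 25395 to 40822 at 18/1 2 hr and 16702 to 92446 at 90/5 5 hr. Normalized it read 15.74, 16.09, 15.41 and 15.68 in unstimulated neurons. Under 18/1 the values were 14.99, 15.97, 15.53 and 15.33 after 2 hr and 15.54, 15.33, 15.85 and 15.18 after 5 hr. Under 90/5 they were 16.10, 16.17, 15.75 and 15.42 after 2 hr and 15.26, 15.66, 14.97 and 15.99 after 5 hr. Every stimulated condition overlapped the unstimulated samples. The 90/5 2 hr samples, all at the ceiling, differed from unstimulated by 0.13 on the log2 scale (limma adjusted p = 0.883). They differed from 18/1 2 hr by 0.40 (limma adjusted p = 0.602), and neither difference passed the test.

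Peripherin (Prph) was at the ceiling in every sample of slides 1 and 2, and read 124562, 375707, 94529 and 357479 raw at 90/5 5 hr. Its normalized values were 16.22 to 16.33 in unstimulated neurons, 16.12 to 16.50 at 18/1 2 hr, 15.45 to 16.12 at 18/1 5 hr, 15.91 to 16.26 at 90/5 2 hr and 15.99 to 16.63 at 90/5 5 hr. As for Nefl, no difference between conditions of slides 1 and 2 is given.

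On slide 3, Cy5 exceeded Cy3 on both arrays for each of these bright probes. The normalized log2 difference between the colours on arrays 9 and 10 was 1.55 and 1.92 for Nefl, 1.42 and 0.81 for Nefm, 0.82 and 0.81 for Nefh 3933, 0.64 and 0.48 for Prph and 0.52 and 1.01 for Stmn2. Over all probes, the median raw Cy5 signal was 1.76 and 2.20 times that of Cy3 on these arrays 1.07 to 1.25 times on the arrays of slide 1 and 1.24 to 1.78 times on those of slide 2. The part of the colour in the spread of the 90/5 5 hr samples was not tested.

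Alpha-internexin (Ina) gave the only probe of the 5 intermediate filament genes among the 10 that passed the filter and was never near the ceiling. The probe at 2203 read 10.98, 10.81, 10.80 and 10.36 in unstimulated neurons. Under 18/1 the values were 10.25, 10.33, 10.96 and 10.09 after 2 hr and 10.60, 10.52, 10.07 and 10.10 after 5 hr. Under 90/5 they were 10.45, 10.65, 10.16 and 10.18 after 2 hr and 10.60, 10.25, 11.66 and 10.45 after 5 hr. All conditions overlapped each other. The mean was 10.74 ± 0.26 (SD, n = 4) in unstimulated neurons and 10.32 ± 0.28 at 18/1 5 hr, a difference of -0.42 (SE 0.35, adjusted p = 0.351), and the difference was -0.33 at 18/1 2 hr, -0.38 at 90/5 2 hr and 0.00 at 90/5 5 hr.

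Tau (Mapt) was read by 3 probes, of which 1 was called. The probe at 1406, never at the ceiling, read 14.91, 15.17, 15.25 and 15.09 in unstimulated neurons. At 18/1 2 hr it read 14.13, 15.11, 15.37 and 14.56. At 18/1 5 hr the 4 samples read 12.64, 12.63, 13.04 and 13.05, below every unstimulated and every 18/1 2 hr sample. At 90/5 2 hr they read 14.15 and 14.66 on array 7 and 12.90 and 12.82 on array 8, so that the arrays of this condition differed from each other by more than the samples on either. At 90/5 5 hr they read 14.61, 15.21, 15.88 and 14.86, around the unstimulated samples.

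In order of the mean, Mapt 1406 was 15.14 ± 0.55 (SD, n = 4) at 90/5 5 hr, 15.11 ± 0.15 in unstimulated neurons, 14.80 ± 0.56 at 18/1 2 hr, 13.63 ± 0.91 at 90/5 2 hr and 12.84 ± 0.24 at 18/1 5 hr. Of neighbours in this order, the first 3 overlapped, 90/5 2 hr overlapped 18/1 2 hr and the difference did not pass the test (-1.16, adjusted p = 0.177), and 90/5 2 hr and 18/1 5 hr, which share a slide, overlapped (0.79, adjusted p = 0.263). On normalized values, Mapt 1406 fell by 2.27 on the log2 scale at 18/1 5 hr (SE 0.48, limma adjusted p = 0.000813), a 4.81-fold lower signal. Its raw signals overlapped, with 8314 to 26793 at 18/1 5 hr and 18600 to 27913 in unstimulated neurons. The arrays of 18/1 5 hr were brighter over all probes, as given below for Tubb3. With a trend on the GC content of probes removed, as described below, the difference was -1.25. The 18/1 5 hr samples are all from slide 2, and with any 1 of the 10 arrays left out the difference was -2.47 to -2.06, each time past the threshold. The difference at 90/5 2 hr was -1.47 (SE 0.48, adjusted p = 0.0679), or 2.78-fold. It was -2.24 without array 7 (adjusted p = 0.00173) and -0.70 without array 8 (adjusted p = 0.692), so that single arrays decide this value. At 90/5 5 hr the difference was 0.04 (SE 0.48, adjusted p = 1).

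The patterns were also compared with each other. At 5 hr, 1 of the 12 probes was called, again Mapt 1406, where 30.7% of all probes were called higher and 15.2% lower (45.9% in either direction). Normalized, it was 4.93-fold higher under 90/5 than under 18/1 (log2 difference 2.30, SE 0.48, limma adjusted p = 0.00065). All 4 normalized values of 90/5 were above all 4 of 18/1. Raw, the groups overlapped, with 20469 to 57448 at 90/5 and 8314 to 26793 at 18/1. With the GC trend removed, the difference was 1.18. The methods' t-test called Mapt 1406 before but not after adjustment (0.0727). The medians were 0.47 over the 12 probes and 0.27 over all probes. At 2 hr, limma called 0 of the 12 between the patterns, where 4.62% of all probes were called, with 1 at an unadjusted p under 0.05 (19.2% of all probes) and 0 by the methods' t-test before adjustment (16.5%). Between 90/5 2 hr and 18/1 5 hr, on the same slide, limma called 0 of the 12, where 13.8% of all probes were called, with 0 at an unadjusted p under 0.05 (31.3% of all probes) and 0 by the methods' t-test before adjustment (16.9%).

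The other probes of Mapt were not called. The probe at 1472 read 15.00, 15.48, 15.34 and 15.27 in unstimulated neurons and 13.96, 14.61, 14.36 and 14.45 at 18/1 5 hr, where 2 of the 4 samples were at the ceiling on the raw scale. These normalized groups did not overlap, and the difference was -0.93 (SE 0.45, limma adjusted p = 0.0946). On the raw scale the order was the opposite, with 34384 to 65527 at 18/1 5 hr and 20468 to 30247 in unstimulated neurons. The probe at 5217 read 14.24, 14.43, 14.53 and 14.29 in unstimulated neurons and 12.48, 12.65, 13.79 and 14.30 at 18/1 5 hr. The last of these samples, array 6 Cy5, was at the ceiling and lay among the unstimulated values, and the difference was -1.07 (SE 0.47, adjusted p = 0.0703). At 90/5 2 hr the differences were -0.56 for each of the probes at 1472 and 5217 (adjusted p = 0.489 and 0.521).

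Within a sample, the distance between probes does not depend on how samples are scaled to each other by a constant. The normalization used here varies with the signal, so that it can still change this distance. The log2 signal at 1406 minus that at 1472 was -0.17 ± 0.11 (SD, n = 4) in unstimulated neurons, and the difference was -0.30 ± 0.08 after 2 hr and -1.51 ± 0.31 after 5 hr of 18/1, and -1.08 ± 0.64 after 2 hr and -0.15 ± 0.21 after 5 hr of 90/5. The shift from unstimulated was -1.34 at 18/1 5 hr and -0.91 at 90/5 2 hr, each with p = 0.0286 in a two-sided exact permutation test, the smallest that 4 against 4 samples allow, and 0.0458 after adjustment over the 8 tests of this kind. At 18/1 2 hr it was -0.13 (exact p = 0.114, adjusted 0.152) and at 90/5 5 hr 0.01 (exact p = 0.914). Against the probe at 5217, the difference was 0.73 ± 0.05 in unstimulated neurons and shifted by -1.20 at 18/1 5 hr, by -0.92 at 90/5 2 hr and by 0.45 at 90/5 5 hr, each again with an exact permutation p of 0.0286 and 0.0458 after adjustment, and by 0.06 at 18/1 2 hr (exact p = 0.343, adjusted 0.392). The colours of an array are counted as separate samples in these tests. Counted by array, 2 against 2, the smallest p that an exact permutation test allows is 0.333, so that no such shift could pass. The signals at the ceiling, 3 at 1472 and 1 at 5217, are lower bounds on the raw scale, which the normalized values need not keep.

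**Figure D3:**
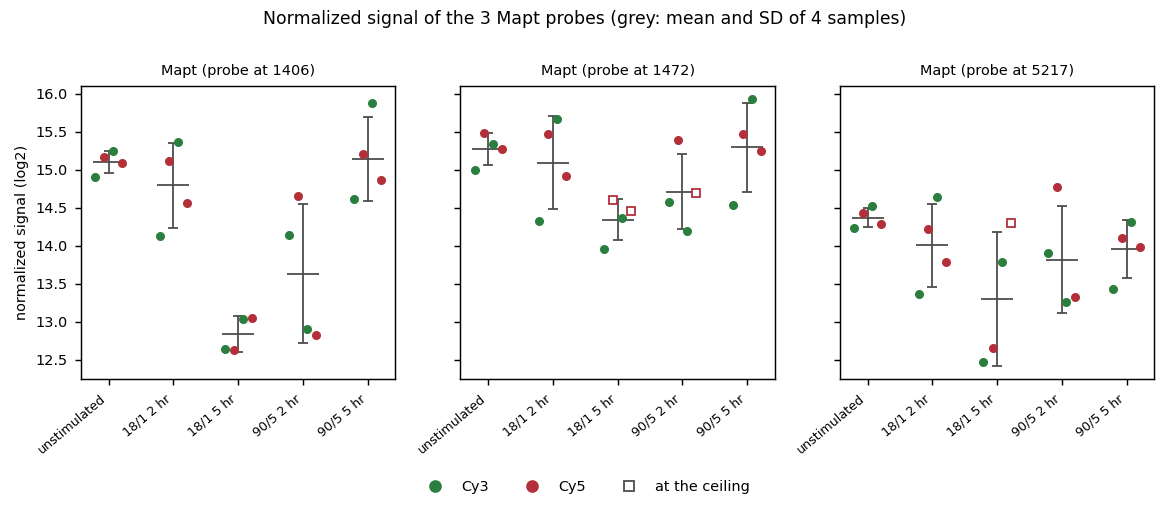
Normalized log2 signal of the 3 Mapt probes in the 20 samples, by condition, with Cy3 in green, Cy5 in red and the mean ± SD of the 4 samples in grey. Mapt 1406 drops to 12.84 at 18/1 5 hr and splits by array at 90/5 2 hr, while 1472 drops to 14.35 and 5217 spreads from 12.48 to 14.30 at 18/1 5 hr.

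The change at 18/1 5 hr ran with the base composition of the probes, and Mapt 1406 has the highest GC content of the 12, 55% against 50% for 1472 and 45% for 5217. Over all probes tested, the median difference between 18/1 5 hr and unstimulated was 0.33 for the 2808 probes with 35% GC, -0.64 for the 2687 with 45%, -0.71 for the 307 with 50% and -1.08 for the 1041 with 55%. Mapt 1406, at -2.27, lay below the quartiles of its class (-1.53 to -0.54). As measured, the other probes of Mapt lay within the quartiles of their classes, 1472 at -0.93 (-1.24 to -0.21) and 5217 at -1.07 (-1.19 to -0.12). Both had samples at the ceiling at 18/1 5 hr, so that their fall may be smaller than measured. When the trend on GC content was removed from each sample, Mapt 1406 was still called, with a difference of -1.25 from unstimulated (adjusted p = 0.0224) and of 1.18 between the patterns at 5 hr (adjusted p = 0.0304). At 90/5 2 hr, on the same slide as 18/1 5 hr, the medians were 0.16 at 35% and -0.44 at 55% GC, with quartiles of -0.74 and -0.16 for the latter, and Mapt 1406 was at -1.47. At 90/5 5 hr the median for probes with 55% GC was 0.09.

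**Figure D4:**
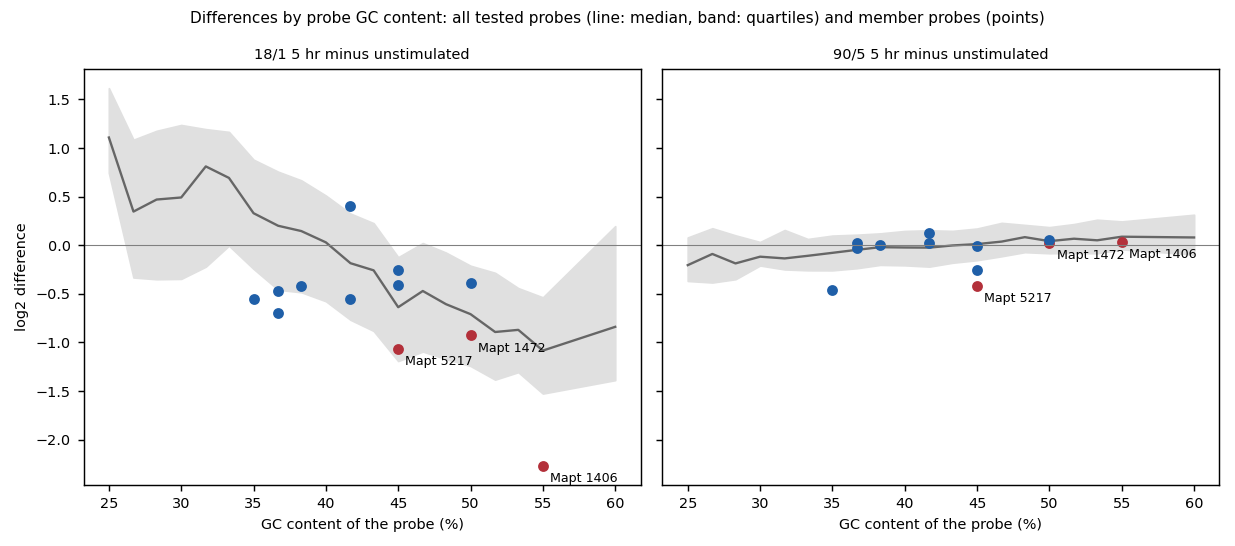
Log2 difference from unstimulated neurons against the GC content of the probe, for 18/1 5 hr and 90/5 5 hr. The line is the median and the band the quartiles of all probes tested, for classes of at least 20 probes, and the points are the tested probes with Mapt in red; at 18/1 5 hr the line falls from 0.33 at 35% to -1.08 at 55% GC and Mapt 1406 lies under the band at -2.27.

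Map1b, which binds microtubules in growing axons, was read by the probe at 10705 at 15.29, 15.78, 15.25 and 15.40 in unstimulated neurons. Under 18/1 the values were 14.06, 15.63, 15.61 and 14.65 after 2 hr and 14.96, 14.82, 15.04 and 14.68 after 5 hr. Under 90/5 they were 14.33, 15.36, 15.42 and 15.11 after 2 hr and 14.33, 15.41, 14.80 and 15.35 after 5 hr. Normalized, the 18/1 5 hr samples, 2 of them at the ceiling on the raw scale, lay just below the unstimulated ones, and those of the other conditions overlapped them. Raw, the order was the opposite, with 52395 to 65527 at 18/1 5 hr and 26924 to 38936 in unstimulated neurons. At 90/5 2 hr 2 samples were also at the ceiling, so that the falls in these 2 conditions may be smaller than measured. The difference was -0.56 at 18/1 5 hr (SE 0.50, adjusted p = 0.383), -0.44 at 18/1 2 hr, -0.37 at 90/5 2 hr (adjusted p = 0.713) and -0.46 at 90/5 5 hr. The probe at 8802 did not pass the filter and read 10.05 to 10.98 in unstimulated neurons, 9.27 to 10.87 at 18/1 2 hr, 10.30 to 10.82 at 18/1 5 hr, 9.31 to 10.10 at 90/5 2 hr and 8.48 to 9.81 at 90/5 5 hr. At 90/5 5 hr all 4 of its values were below all unstimulated ones, whereas the probe at 10705 overlapped. With a filter on background alone the probe at 8802 was tested and not called, with -1.33 at 90/5 5 hr (adjusted p = 1, unadjusted p = 0.0279), 0.04 at 18/1 5 hr (adjusted p = 0.962) and -1.37 between the patterns at 5 hr (adjusted p = 0.0552).

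Map2 has no probe that passed the filter. The brightest probe, at 5145, failed on a single mark for non-uniformity, on array 5 in Cy5. It read 13.33, 13.28, 12.99 and 12.52 in unstimulated neurons. Under 18/1 the values were 12.83, 13.32, 13.19 and 12.29 after 2 hr and 12.29, 12.47, 12.55 and 12.77 after 5 hr. Under 90/5 they were 12.33, 12.57, 12.54 and 12.30 after 2 hr and 12.99, 12.85, 12.29 and 13.37 after 5 hr. All conditions overlapped the unstimulated samples. The probe at 4905 read 11.37 to 12.17 in unstimulated neurons and 9.69 to 10.69 at 18/1 5 hr, where both samples of array 5 were marked as non-uniform, and these groups did not overlap. When the marks were ignored and probes were filtered on background alone, it was called lower at 18/1 5 hr (-1.54, SE 0.45, adjusted p = 0.00966, where 41.5% of 18338 probes were called), and the probe at 5145 was not (-0.51, adjusted p = 0.328). The probe at 5066 was the dimmest, with 6.91 to 8.79 in all samples, and was well above background in 16 of the 20.

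**Figure D5:**
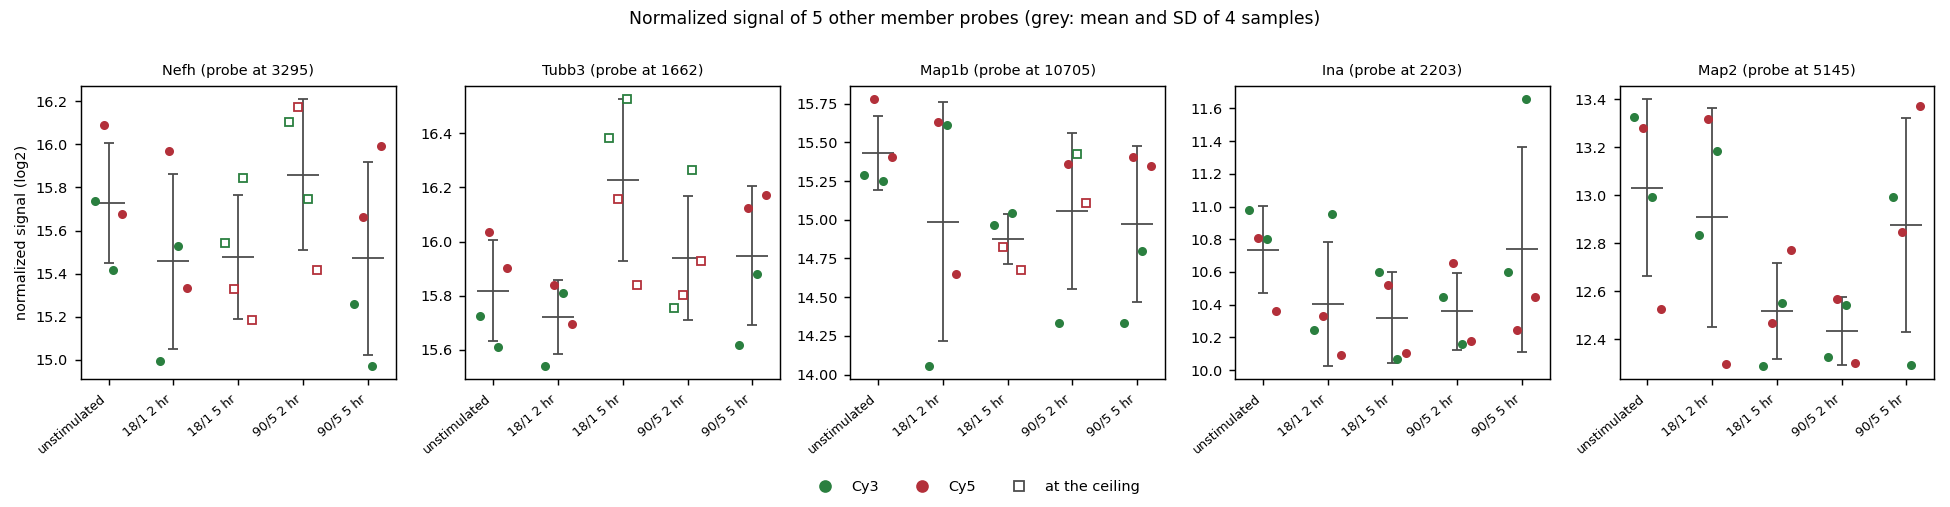
Normalized log2 signal of Nefh 3295, Tubb3, Map1b 10705, Ina 2203 and Map2 5145 in the 20 samples, by condition, with the mean ± SD of 4 samples in grey and open squares for signals at the ceiling. Nefh 3295 and Tubb3 are at the ceiling in all 8 samples of slide 2, and Ina 2203 lies at 10.07 to 11.66 throughout.

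The neuronal tubulin Tubb3 had higher raw signals at 18/1 5 hr than in unstimulated neurons, on arrays that were brighter over all probes. The median ratio of signal to background over all probes was 5.55 to 10.45 at 18/1 5 hr and 2.27 to 2.59 in unstimulated samples. Raw signals of Tubb3 were 41997 to 54144 in unstimulated neurons, 41141 to 47668 at 18/1 2 hr and 64220 to 65527 on slide 2, where all 8 samples were at the ceiling. They were 51302, 137402, 39982 and 133169 at 90/5 5 hr. Normalized, Tubb3 read 15.72, 16.03, 15.61 and 15.90 in unstimulated neurons and 16.38, 16.16, 16.52 and 15.84 at 18/1 5 hr, which overlapped. The latter were higher on normalized values (log2 difference 0.41, SE 0.29, limma adjusted p = 0.26), which did not pass the test. With samples centred on their medians alone the difference was -1.45. On the log2 scale the difference was 0.12 at 90/5 2 hr (limma adjusted p = 0.858) and 0.13 at 90/5 5 hr. Stmn2, a marker of axon growth, was at the ceiling in all samples of slides 1 and 2, with normalized values of 16.16 to 16.29 in unstimulated neurons and 15.53 to 16.20 at 18/1 5 hr, for which no difference is given, and its raw signals at 90/5 5 hr were 114392, 316438, 56954 and 310250.

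Among 14 further tubulins, 13 were tested, and at 18/1 5 hr 1 rose and 3 fell, with a median of -0.41 beside -0.26 for all probes, of which 14.4% rose and 30.6% fell. With samples centred on medians alone 0 rose and 10 fell, with a median of -1.95 beside -0.84 for all probes. With the GC trend removed 2 rose and 2 fell, with a median of 0.09 beside 0.02. Over all probes and both directions, centring called 53.4% at 18/1 5 hr and 58.4% between the patterns at 5 hr, and GC removal 35.4% and 34.6%. Of the 13 tubulins, 6 were at the ceiling in 14 to 16 samples and Tubb2b in 9, which limits what the counts and medians of the group can show, while the tubulins whose values are given were at the ceiling in 0 samples. The alpha-tubulin Tuba1c rose by 1.47 (adjusted p = 0.0167), and the beta-tubulin Tubb4a (-2.56, adjusted p = 3.08e-05) and the centrosomal gamma-tubulin Tubg1 (-2.41, adjusted p = 2.87e-06) fell. Tubg1 also fell at 90/5 2 hr, by 1.07 (adjusted p = 0.0228), as the only call there, where 6% of all probes were called, and lost that call on centring (-0.76, adjusted p = 0.218) and with the GC trend removed (-0.64, adjusted p = 0.083). Between the patterns at 5 hr, where 30.7% of all probes were called higher and 15.2% lower, 3 tubulins were higher under 90/5, with 2.64 for Tubg1 and 2.59 for Tubb4a, and 1 was lower, Tuba1c with -1.26, while on centring 10 were higher and 0 lower. Tuba1c lost this call on centring (adjusted p = 0.267), under quantile normalization (0.0532) and with the GC trend removed (0.152). Tubb4a was also higher at 90/5 2 hr than at 18/1 5 hr, on the same slide, by 1.96 (adjusted p = 0.00476), and Tubb1 by 1.47 (adjusted p = 0.0348), 2 of 3 calls, beside 13.8% of all probes. On centring 10 tubulins were higher there and 0 lower, beside 47.4% of all probes called. Tubb4a and Tubg1 kept their calls at 18/1 5 hr and between the patterns at 5 hr under quantile normalization, centring on medians and removal of the GC trend, and Tuba1c lost its call at 18/1 5 hr under the last 2. Tubulin genes are alike in sequence, and whether a probe binds the transcripts of more than 1 of them was not tested.

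The next group of 20 genes holds microtubule-associated proteins, stathmins, collapsin response mediators and Gap43, and 19 of them were tested. At 18/1 5 hr 2 rose, Map4 (2.07, adjusted p = 0.000559) and the collapsin response mediator Dpysl5 (2.00, adjusted p = 0.000376), and 5 fell, with the largest falls in Map1s (-1.99, adjusted p = 0.000291) and the plus-end binding protein Mapre1 (-1.87, adjusted p = 0.000371). The median was -0.32. The 2 and 5 of 19 stand beside 14.4% and 30.6% of all probes. On centring 2 rose and 12 fell, and with the GC trend removed 4 rose and 4 fell. Both genes that rose also rose at 90/5 2 hr (Dpysl5 by 1.93, adjusted p = 0.00421, and Map4 by 1.44, adjusted p = 0.0423), where 0 fell, beside 3.07% of all probes called higher and 2.92% lower. Each of these 2 genes was at the ceiling in 3 samples. Dpysl5 was higher under 90/5 than under 18/1 at 2 hr by 1.87 (adjusted p = 0.00591) and lower at 5 hr, with a log2 difference of -2.17 (adjusted p = 0.000163). Between the patterns at 5 hr, where 30.7% of all probes were called higher and 15.2% lower, 6 of the 19 were higher under 90/5, led by Map1s (1.80) and Mapre1 (1.45), and 2 lower, where the counts were 12 and 1 on centring and 3 and 4 with the GC trend removed. Map1s lost this last call when the GC trend was removed (adjusted p = 0.0996). At 90/5 2 hr against 18/1 5 hr 1 of the 19 was called, Dpysl3 (1.12, adjusted p = 0.025), beside 13.8% of all probes, and on centring 13 were higher.

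Of 13 spectrins, ankyrins, plakins and band 4.1 proteins, which couple axonal filaments to the membrane and to each other, 10 were tested. At 18/1 5 hr 0 rose and 5 fell, where 14.4% of all probes rose and 30.6% fell, with a median of -0.76 beside -0.26. The largest falls were in the band 4.1 protein Epb41l3 (-1.98, adjusted p = 0.00416) and in the beta-spectrin Sptbn1 (-1.54, adjusted p = 0.0216). With the GC trend removed, 2 rose and 2 fell, the median was -0.11 and Sptbn1 was not called (adjusted p = 0.398). Epb41l3 fell by 2.39 on the log2 scale at 90/5 2 hr (adjusted p = 0.00783), the only call of this group there (6% of all probes), and was lower under 90/5 than under 18/1 at 2 hr by 2.10 (adjusted p = 0.022). Between the patterns at 5 hr, beside the same 30.7% and 15.2%, 3 were higher under 90/5, with Sptbn1 at 2.12 and Sptan1 at 0.84, and 1, the plakin Macf1, was lower at -1.35. The median was then 0.57. It was -0.12 with the GC trend removed, with 1 higher and 2 lower, and on centring 5 were higher and 0 lower. Macf1 lost its call on centring (adjusted p = 0.24), and Sptan1 on centring (0.053) and with the GC trend removed (0.576).

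Of 23 other intermediate filament genes and of kinases and turnover factors that act on neurofilaments, 14 were tested. With 14.4% of all probes called higher and 30.6% lower at 18/1 5 hr, 1 rose, the Cdk5 activator Cdk5r2 (0.94, adjusted p = 0.00711), and 2 fell, the nuclear lamin Lmna (-1.32, adjusted p = 0.00157) and the kinase Mark3 (-0.97, adjusted p = 0.0253), with a median of -0.04. Cdk5r2 was not called with samples centred on medians alone (adjusted p = 0.522) and Lmna not with the GC trend removed (adjusted p = 0.364). Between the patterns at 5 hr, beside 30.7% of all probes higher and 15.2% lower, 3 were higher under 90/5, with Lmna at 1.51 and Mark3 at 0.95, and 2 lower, with Synm at -0.81 and Cdk5r2 at -0.76, the latter with the sign turned (0.04) on centring. On centring 4 were higher and 0 lower, and Synm was not called (adjusted p = 0.687). With the GC trend removed 1 was higher and 2 lower, and Lmna was not called (adjusted p = 0.244). Between the patterns at 5 hr, the largest rises and falls of these 4 gene groups, at most 2 of each per group, made up 14 calls. Of these, 8 were kept on centring and 9 with the GC trend removed. In all 4 gene groups, limma called 0 genes at 18/1 2 hr (0.0165% of all probes) and 0 at 90/5 5 hr (0.0577%) against unstimulated neurons.

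The labelled cell type was checked against its markers, since the text of the methods at one point gives the spinal cord as the source. Of 12 markers of sensory neurons, 11 were well above background in all 20 samples, and Trpv1 in 18. Of 9 markers of spinal cord neurons, 1 was (Slc17a6, which sensory neurons also use), while Slc32a1 was in 17 samples, Slc18a3 in 16 and Slc5a7 in 14, and the other 5 in 1 to 7. The summed signal of the sensory neuron markers was 17.96 to 18.74 on the log2 scale across the 20 samples, and that of the spinal cord markers 12.82 to 14.97. These sums are of different probes, some at the ceiling (Calca in 16 samples), so their levels are not compared. Of the 9 sensory neuron markers tested, limma called 1 higher and 1 lower at 18/1 5 hr than in unstimulated neurons (14.4% and 30.6% of all probes). The 1 spinal cord marker tested, Slc18a3, was called lower there (-1.12) and higher under 90/5 than under 18/1 at 5 hr (1.72). The summed signal of 6 fibroblast markers was 14.08 to 15.45 in unstimulated neurons, 16.03 to 16.23 at 18/1 5 hr, 14.38 to 16.31 at 90/5 2 hr and 14.37 to 15.45 at 90/5 5 hr, and 5 of the 6 were well above background in all samples. Of the 4 fibroblast markers tested, limma called 1 higher at 18/1 5 hr than in unstimulated neurons (14.4% of all probes) and 3 lower under 90/5 than under 18/1 at 5 hr (15.2%). The summed signal of 6 markers of astrocytes and oligodendrocytes was 10.05 to 10.40 in unstimulated neurons, 10.84 to 12.42 at 18/1 5 hr and 10.27 to 10.99 at 90/5 2 hr. Of 10 markers of Schwann cells and satellite glia 6 were well above background in all samples, with a summed signal of 16.26 to 16.44 in unstimulated neurons and 15.64 to 16.71 at 18/1 5 hr, and of the 2 tested 0 were called there. Their part in the fall of Mapt 1406 was not tested.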

How the data were processed

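RNA of cultured mouse DRG neurons was read on 10 two-colour Agilent arrays, with 20 samples in 5 conditions of 4. The authors deposited the intensity of each spot and of its background, on a linear scale and not normalized, from Feature Extraction 10.7.1.1 (slide 1) and 10.7.3.1 (slides 2 and 3), per the file headers; 70 columns of each array were not used. Here, in R 4.3.3 with limma 3.58.1, background was corrected with normexp (offset 50), colours were normalized by loess (span 0.3, control spots at weight 0) and arrays by Aquantile. Spots of a probe were averaged. A model was fitted to each of the 12137 probes that passed the filter, with condition and colour as terms and the array as a random block, and p-values were adjusted by Benjamini-Hochberg over all probes of a comparison, with a threshold of 0.05. Of the probes of a gene, the one described and plotted first is the brightest that passed the filter without a mark for saturation in any sample, failing that the brightest that passed, and failing that the brightest. Of the other gene groups, at most 2 rises and 2 falls per comparison are named. Members, gene groups and tests were chosen with earlier results of these data known. The methods' t-test was run beside limma with p under 0.05 and a fixed minimum fold of 1.4, the thresholds of the paper's filter before clustering. The paper's criterion for a regulated gene instead sets a fold cut-off per transcript. Alternatives covered background, normalization, spot filter, ceiling, probe choice, fit, array weights, GC content, replicate number and each sample and array left out. The setting that leaves out probes at the ceiling was chosen after seeing the data. The fit was run on simulated data with normal noise of a common spread and an array effect. They held no slide effect, GC trend or ceiling, so that they say nothing of these. Samples of the same replicate number deviated together in unstimulated and 18/1 2 hr neurons (correlations of 0.40 to 0.70 in 4 of 4 pairs). The numbers were therefore taken to pair these, by the data and not by the labels. They were not taken to pair unstimulated and 90/5 5 hr neurons (-0.069 to 0.485). Between 18/1 2 hr and 90/5 5 hr neurons the correlations were -0.025 to 0.638, with 3 of 4 over 0.1. Each number had the same colour in these conditions, and the part of the colour was not tested. No 2 samples had identical values.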

Additional observations from a re-analysis of the deposited data

Results flagged for a closer look

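The Map1b probe at 8802 read 10.30 in array 6 Cy3 at 18/1 5 hr, while the other 3 samples of that condition read 10.75 to 10.82, a gap of 0.859 of the range of the 4. The Map2 probe at 4905 read 10.05 in replicate 3 of 90/5 5 hr, against 11.16 to 11.34 in the others, a gap of 0.863 of the range. Both probes had failed the spot filter, and chance alone sets 1 sample apart in this way in about 1 in 20 groups, of which 85 were examined. The difference between the patterns differed between the times for Mapt 1406: it was -1.16 at 2 hr and 2.30 at 5 hr, and the interaction term was 3.47 (SE 0.68, limma adjusted p = 0.000377, where 45% of all probes were called), with 90/5 5 hr, 18/1 5 hr and 90/5 2 hr, and 18/1 2 hr on 3 different slides. With the trend on GC content removed, the term was 1.96, and with any 1 array left out it was 2.70 to 4.24.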

How the results depend on the processing

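The fall of Mapt 1406 at 18/1 5 hr kept its call in all 16 other settings that give an adjusted p, from -2.60 to -1.25 on the log2 scale (adjusted p from 3.07e-05 to 0.0224), and without any 1 sample or array (-2.47 to -2.06). Its higher signal under 90/5 than under 18/1 at 5 hr kept its call in 15 of 16 (1.18 to 2.84) and missed it in the methods' t-test after adjustment (0.0727). At 90/5 2 hr it was called in 4 of 16 other settings (adjusted p from 0.00684 to 0.298). With array 8 left out, 90/5 2 hr exceeded 18/1 5 hr by 1.57 (adjusted p = 0.0145) and differed from 18/1 2 hr by -0.39 (0.986); with array 7 left out these values were 0.02 (0.987) and -1.93 (0.00515).

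The number of member probes called moved more than this; the cause was not tested. Percentages are shares of all probes tested. At 18/1 5 hr, with 1 in the text, where 44.9% were called, it was 2 under quantile normalization (45%), with only the conditions compared (41.1%), with weights for array quality (52.2%) and with the GC trend removed (35.4%), and 2 of 16, the second being Map2 4905, with the filter within a condition (37%) and with the background rule alone (41.5%). It was 3 with means of arrays (40.6%) and in the methods' t-test after adjustment (40.1%), 4 with the array not a block (59.9%), 5 in that t-test before adjustment (49.6%) and 11 with samples centred on medians alone (53.4%). It was 0 with 1 probe per gene, a choice that takes Mapt 1472 in place of 1406. Between the patterns at 5 hr, with 1 in the text, where 45.9% were called, it was 3 under quantile normalization (46%), array weights (54.1%) and GC removal (34.6%), 4 with means of arrays (41.7%), 5 without the block (60.9%), 11 on centring (58.4%), and 0 with 1 probe per gene (45.4%) and in the adjusted t-test (29.5%). For the interaction, with 1, where 45% were called, it was 2 under quantile normalization (45.1%) and GC removal (34.2%), 3 without the block (60.1%) and with means of arrays (40.8%), 8 on centring (50.5%) and 0 with 1 probe per gene (44.8%). Where the text has 0, it became 2 with array weights at 18/1 2 hr (14.4%) and 90/5 5 hr (24.9%), and 1 at 90/5 2 hr under quantile normalization (6.25%), without the colour term (6.17%), without the block (21.6%), with array weights (16.7%) and in the t-test before adjustment (20.1%). It became 1 between the patterns at 2 hr without the block (16.9%), and 9 between 90/5 2 hr and 18/1 5 hr on centring (47.4%).

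Leaving out 1 sample or array gave 0 to 0 calls at 18/1 2 hr and 90/5 5 hr. The range was 1 to 3 at 18/1 5 hr (3 without array 6), between the patterns at 5 hr (3 without array 6 or 90/5 5 hr replicate 1) and for the interaction (3 without array 6). It was 0 to 1 at 90/5 2 hr (1 without array 5, 6 or 7 or the Cy5 sample of 5 or 7), between the patterns at 2 hr (1 without array 7) and between 90/5 2 hr and 18/1 5 hr (1 without array 6 or 8). On centring, Tubb3 turned sign to -1.45 at 18/1 5 hr, 1.82 between the patterns at 5 hr, 1.27 between 90/5 2 hr and 18/1 5 hr and 2.01 for the interaction, and Nefh 3295 to 1.09 between the patterns at 5 hr. With array weights Ina 2203 turned to -0.42 at 90/5 5 hr (adjusted p = 0.0207).

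Over all probes, centring changed the share of calls that were higher from 32% to 8.15% at 18/1 5 hr and from 67% to 93.2% between the patterns at 5 hr, and GC removal to 48.4% and 51.4%. At 90/5 2 hr centring moved it from 51.2% to 75.5%. Array weights raised the calls from 2 to 1751 at 18/1 2 hr and from 7 to 3023 at 90/5 5 hr. With a replicate block the calls were 0 of the 12 at 18/1 2 hr, where the numbers pair the samples, and 0 of the 12 at 90/5 5 hr (327 of 12137 probes), where they do not. Signals at the ceiling limit what 10 of the 17 probes can show.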

Other observations

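The second probe of Ina, at 2772, which failed the spot filter, read 11.64 and 11.997 on array 5 and 7.63 and 7.56 on array 6, arrays of the same condition (18/1 5 hr), and 8.22 to 9.37 in the other samples. The first values carry marks for non-uniformity.

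The 10 spots of the Nefm probe give the spread within an array. At 18/1 5 hr in array 5 Cy5 all 10 spots had the same raw signal, 65527, while their normalized values had an SD of 0.45. On slide 3, where no spot was at the ceiling, the SD between spots was 0.03 to 0.12.

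The probes of other genes whose values ran most like the mean of the described probes of Nefl, Nefm and Nefh over the 20 samples were those of Cox6a1 (Pearson's r of 0.953), Aldoa (0.927), Gm12070 (0.927), the transcript named NAP111752-1 (0.922) and Hsp90ab1 (0.917). Each of them was at the ceiling in 16 of the 20 samples, as were Nefl, Prph and Stmn2. At the ceiling the order of samples comes from the normalization, so that these correlations do not show that the transcripts ran together.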
